A study of Homo sapiens with 8 samples.

Results

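The NKX2 homeobox genes are a family of 7 here, NKX2-1, NKX2-2, NKX2-3, NKX2-4, NKX2-5, NKX2-6 and NKX2-8, taken by symbol from 58780 annotated genes. Each symbol matched 1 gene, and 3 of the 7 (NKX2-3, NKX2-5 and NKX2-6) passed the filter on low counts that left 17446 genes for testing. These 3 passed through the stages in which they were high, so the number that passed is not itself a result. The cells were H1, an established human embryonic stem cell line, grown as undifferentiated cells (hESC) and carried stepwise to hDE, the definitive endoderm, then to hAFE, an anterior foregut stage, and to hPFE, a pharyngeal foregut stage. Each stage had 2 RNA-seq libraries, 8 in all, and no genotype or treatment other than the differentiation step is named in the labels. All libraries come from that 1 line. A re-analysis mark is carried by the 4 hESC and hDE libraries but by none of hAFE or hPFE, so in a comparison across that division the stage and where the library came from cannot be told apart. Whether replicates came from separate cultures is not stated, so the p-values reflect only how far replicate libraries differ, and that spread may be technical.

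NKX2 proteins are transcription factors that bind DNA through a homeodomain and mark organ territories along the foregut and its surrounding mesoderm. NKX2-1 (also called TTF1) is required for thyroid, lung and ventral forebrain, and NKX2-4 is its closest relative. NKX2-2 acts in pancreatic endocrine cells and in the ventral neural tube. NKX2-5 is best known from the heart field and is also used in pharyngeal endoderm, NKX2-6 is known from pharyngeal pouch endoderm, and NKX2-3 from pharyngeal floor and from gut and spleen mesoderm. NKX2-8 lies beside NKX2-1 and is used in foregut endoderm. The question asked of them here is whether the thyroid, lung or pharyngeal members are on at any stage.

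The homeobox, the 180 bases that encode the homeodomain, is the part the genes share most and hence where reads could be confused between them. It is shown for NKX2-3, the member whose 2 hAFE libraries differ most. The sequence is from a GENCODE 29 transcript on hg38, 5′ to 3′ on the coding strand, and capitals mark the codons for the tryptophan, phenylalanine, glutamine and asparagine of the DNA recognition helix. It lies in coding exon 2 at chr10:99535068-99535247 (plus strand).
NKX2-3: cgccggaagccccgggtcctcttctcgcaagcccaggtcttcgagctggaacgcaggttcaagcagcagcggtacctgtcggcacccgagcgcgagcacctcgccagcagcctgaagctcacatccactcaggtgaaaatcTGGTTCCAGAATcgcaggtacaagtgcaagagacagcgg
Across the 21 pairs of members the homeoboxes were identical at 70.0% to 94.4% of bases. NKX2-5 and NKX2-3 matched at 148 of 180 bases (82.2%), and NKX2-5 and NKX2-1 at the same number. The longest run of bases shared exactly by any transcripts of 2 members was 71, between NKX2-1 and NKX2-4, and NKX2-5 shared at most 38 with another member (NKX2-6). RSEM's posterior standard deviation of the count was 0 for all 7 members in all 8 libraries.

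Libraries held 12687161 to 17802900 counts. Stage labels were checked on marker lists by their summed TPM, an abundance per transcript length that has the same total in every library. The 6 pluripotency markers summed to 850.2 and 1025 TPM in hESC and to 17.1 to 42.1 in hAFE and hPFE. In hDE they summed to 177.9 and 207.6 TPM, mostly TDGF1 at 149.9 and 165.5 TPM. The 8 definitive endoderm markers summed to 2392 and 2719 TPM in hDE and to no more than 27.4 in any other library. Of 8 foregut endoderm markers, 7 were at 1 TPM or more in every hAFE and hPFE library, against 3 and 3 in hESC and 3 and 5 in hDE. Mitochondrial ribosomal RNA took 10.6% to 18.4% of counts, with the highest share in the second hPFE library.

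One NKX2 gene was on in both libraries of a stage. NKX2-5 was at 1 TPM or more in both hPFE libraries, as were 55.9% of 19956 nuclear protein-coding genes. No member reached 1 TPM in both libraries of hESC, hDE or hAFE, where 52.4%, 47.6% and 53.1% of those genes did. At 0.5 TPM, NKX2-5 and NKX2-6 were on in both hAFE libraries. When TPM was recomputed over nuclear protein-coding genes alone, which held only 12.9% to 30.3% of the deposited TPM, NKX2-5 and NKX2-6 passed 1 in both libraries of hAFE and of hPFE. The 7 members together held 1 to 5 counts per library in hESC and hDE, 52 and 460 in hAFE, and 334 and 61 in hPFE.

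**Figure D1:**
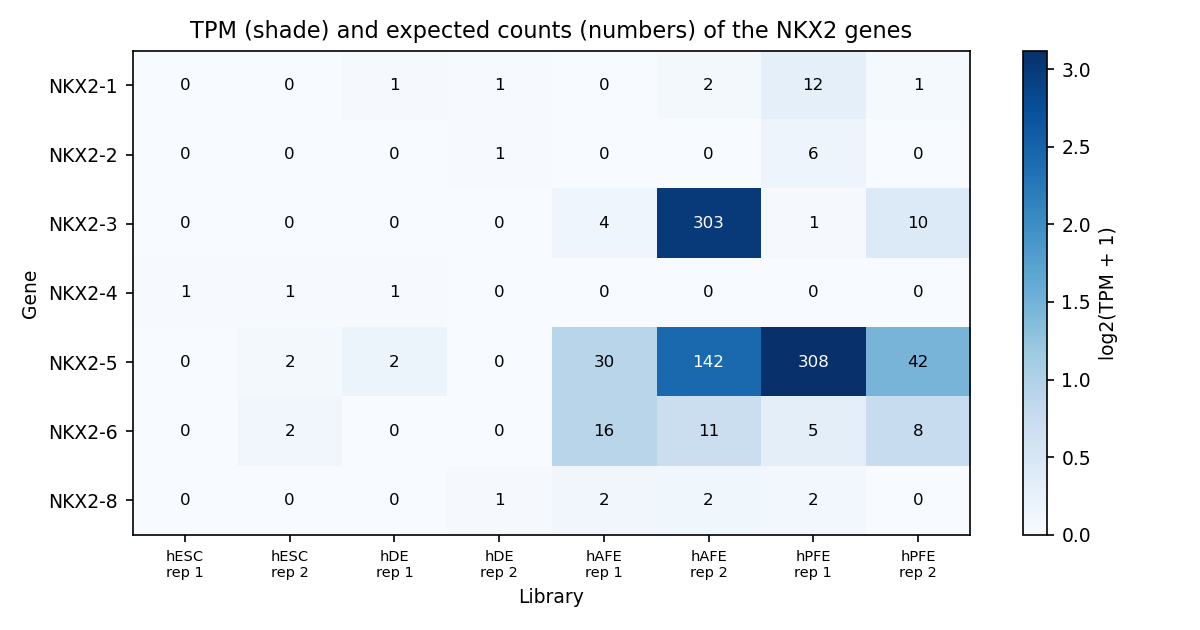
Expected counts (numbers) and TPM (shade, log2 of TPM + 1) of the 7 NKX2 genes, 1 row per gene and 1 column per library. The dark cells are NKX2-3 in the second hAFE library (303 counts) and NKX2-5 in the second hAFE and first hPFE libraries (142 and 308 counts), while NKX2-1, NKX2-2, NKX2-4 and NKX2-8 hold at most 12 counts in any library.

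NKX2-5 (ENSG00000183072.9, chromosome 5, 173232109 to 173235357, minus strand) was near 0 in stem cells and definitive endoderm and present in all 4 foregut libraries. Its counts were 0 and 2 in hESC, 2 and 0 in hDE, 30 and 142 in hAFE, and 308 and 42 in hPFE. In CPM, counts scaled to library size after TMM, those of hAFE were 1.98 and 10.4 and those of hPFE 18.7 and 3.03. Every foregut library lay above every earlier library, while the hAFE and hPFE libraries overlapped. In TPM the hAFE libraries held 0.88 and 4.45 and the hPFE libraries 7.68 and 1.76, which placed NKX2-5 at the 43.6th to 74.4th percentile of nuclear protein-coding genes. The effective length that RSEM assigned to it in these 4 libraries was 1317 to 1451 bases, and its 4 annotated transcripts run from 655 to 1709 bases.

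By edgeR's quasi-likelihood test over all 17446 genes, NKX2-5 was higher in hAFE than in hDE, at 6.18 ± 5.94 against 0.089 ± 0.126 CPM (mean ± SD, n = 2; adjusted p = 0.0229). The ratio of counts, with 2 in hDE, was 74.8 (exact 95% binomial interval 20.4 to 622, which covers counting error only). It was also higher in hPFE, at 10.9 ± 11.1 CPM (n = 2), than in hDE (ratio 144, interval 39.7 to 1200; adjusted p = 0.012) and than in hESC (ratio 198, interval 54.4 to 1640; adjusted p = 0.00716), and higher in hAFE than in hESC (ratio 103, interval 27.9 to 853; adjusted p = 0.0138). Between hPFE and hAFE the log2 fold change was 0.82 (SE 0.971) and did not pass (edgeR adjusted p = 0.634), nor did hDE against hESC (adjusted p = 0.913). Both foregut stages thus lay above both earlier stages, with no order shown between hPFE and hAFE or between hDE and hESC. These calls rest on few libraries. The hAFE against hDE call was lost without the first hDE library (adjusted p = 0.0872), without the second (0.145) and without the second hAFE library (0.0722), with effective length offsets (0.0535) and on log2(TPM + 1) (0.0852). Without the first hESC library the calls against hESC were lost for hPFE (0.0573) and hAFE (0.0906). The hAFE against hESC call was also lost without the second hESC library (0.0709) and on log2(TPM + 1) (0.11), and the hPFE against hDE call without either hDE library (0.0602 and 0.0969).

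**Figure D2:**
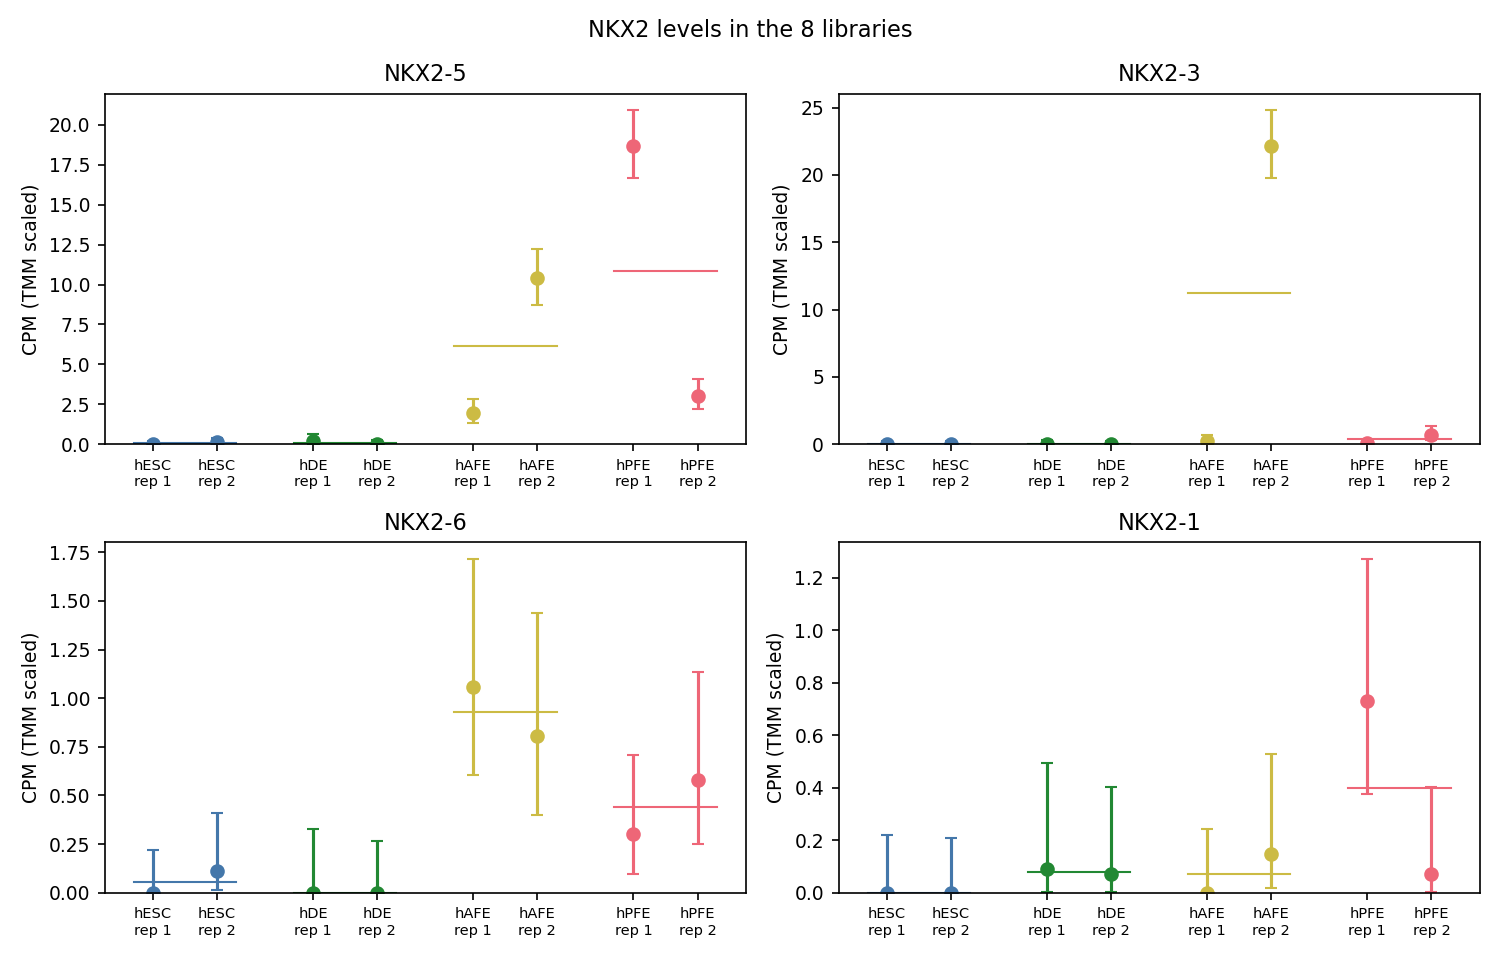
CPM of 4 NKX2 genes in each library, with exact 95% Poisson intervals for counting error and a line at each stage mean. NKX2-5 lies above 1 CPM in all 4 foregut libraries with a wide gap between replicates, NKX2-3 is high in 1 hAFE library at 22.2 CPM, and NKX2-6 and NKX2-1 stay near or below 1 CPM.

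Markers of other cell types were read beside NKX2-5, because heart and gut mesoderm also use it. In bulk RNA, fewer cells of a type and less RNA per cell cannot be told apart. Of 16 heart markers, 5 to 8 were at 1 TPM or more in each foregut library, and the list summed to 66.5 to 113.1 TPM there, against 563 and 652.2 TPM in hDE, where NKX2-5 held 2 counts in all. The hDE sums were mostly NPPB, a natriuretic peptide gene, at 459.6 and 391.3 TPM, and MYL7, an atrial myosin light chain, at 152.2 and 140.6 TPM. In foregut the list was led by ACTC1, the cardiac actin, at 21.7 to 28.6 TPM, MYL7 at 3.94 to 35.9 TPM and NPPB at 1.22 to 49.0 TPM. MYL7 and NPPB were lower in the library of each stage that had more NKX2-5, though MYL7 differed little in hAFE (35.9 and 32.0 TPM). MYL4, TNNI1, MEF2C, TBX20, HAND2 and, near 0, MYH7 of the same list were instead higher in that library in both stages. Of these, MYL4 held 2.45 and 10.7 TPM in hAFE and 1.18 and 0.18 TPM in hPFE. NPPA, an atrial hormone gene, was at 0 in the 4 foregut libraries, and the cardiac myosin gene MYH6 and the T-box gene TBX5 held at most 0.08 and 0.03 TPM in them. HAND2, a heart field and branchial arch factor, was at 14.4 TPM in the first hPFE library and 0.58 in the second, and at 0 and 0.07 in hAFE. The 12 gut mesenchyme markers summed to 43.4 and 109.8 TPM in hAFE and to 214.8 and 42.3 TPM in hPFE. In both stages the library with more NKX2-5 thus also had the larger sum, which was mostly ACTA2, the smooth muscle actin, at 106.5 TPM in the second hAFE library, and COL3A1, a fibrillar collagen, at 136.2 TPM in the first hPFE library. COL1A1, another fibrillar collagen, held 1.28 and 0.94 TPM in hAFE and 12.7 and 14.1 TPM in hPFE, and PDGFRA, a mesenchymal growth factor receptor, 3.09 and 0.12 TPM in hAFE and 0.87 and 0.86 TPM in hPFE. The order of the hPFE libraries can depend on the scale, as nuclear coding genes held 20.9% of TPM in the first and 30.3% in the second. In CPM, COL1A1 held 4.76 and 6.58 in hAFE and 84.8 and 62.9 in hPFE, and PDGFRA 7.10 and 4.91 in hPFE. The heart list summed to 142.4 and 98.4 CPM in hPFE and the gut mesenchyme list to 1457 and 128.4 CPM. Of the transcription factors on the gut mesenchyme list FOXF1, a defining factor of visceral mesoderm, held at most 0.03 TPM in any library. TWIST1 held 0.54 and 0.08 TPM in hPFE and NKX3-2 0.72 and 0.25 TPM. TLX1 held 0 and 1.00 TPM in hAFE but 0.02 and 0.31 TPM in hPFE. Higher in the library with less NKX2-5 were BARX1 in hPFE (0.12 and 0.64 TPM) and TCF21 in hAFE (0.24 and 0 TPM). The part of these cells in the NKX2-5 level was not tested.

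**Figure D3:**
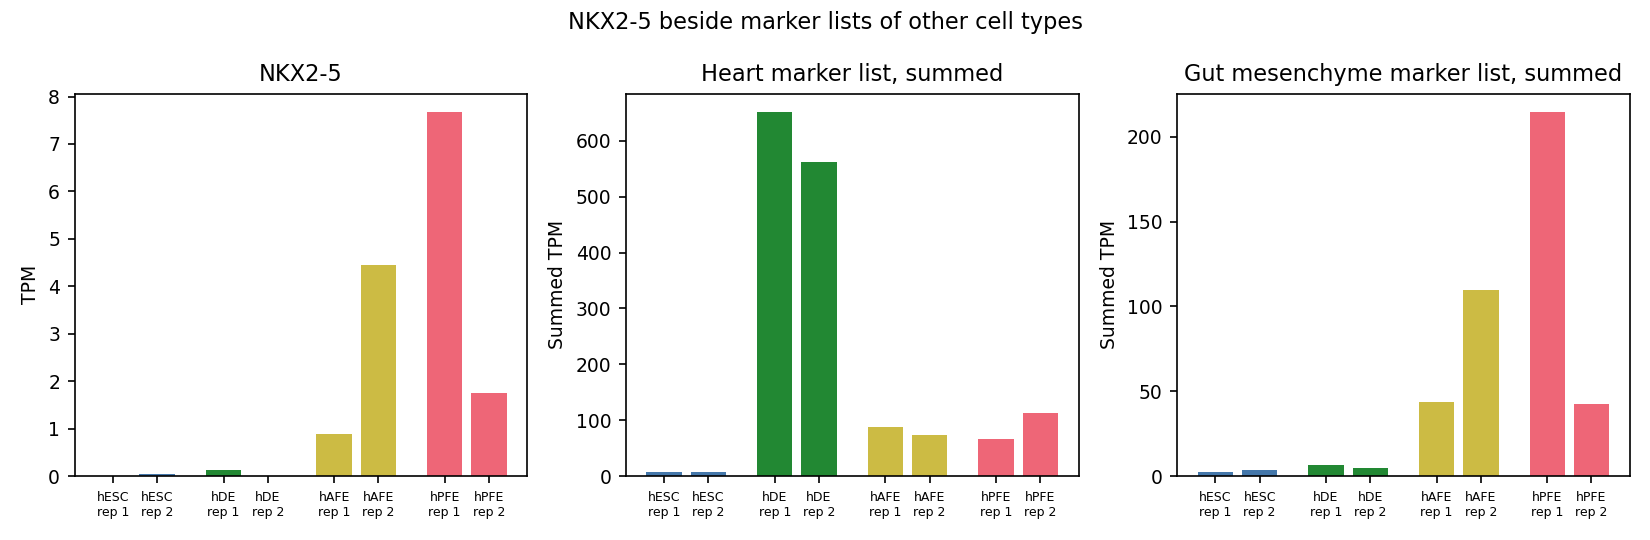
TPM of NKX2-5 (left) and summed TPM of the heart (middle) and gut mesenchyme (right) marker lists in each library. NKX2-5 and the gut mesenchyme sum are both highest in the first hPFE library (7.68 and 214.8 TPM), while the heart list is highest in hDE.

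NKX2-3 (ENSG00000119919.10, chromosome 10, 99532933 to 99536524, plus strand) was high in 1 library of 8. It had 0 counts in the 4 hESC and hDE libraries, 4 and 303 in hAFE, and 1 and 10 in hPFE. The 2 hAFE libraries thus stood at 0.264 and 22.2 CPM, 83.8-fold apart, and at 0.09 and 6.93 TPM. The second hAFE library lies far above all the others, and the first hAFE library lies between the 2 hPFE libraries. On log2 CPM this gap between hAFE replicates was the 13th largest of 17446 genes. The first hAFE library held 13737594 counts in all and the second 12687161. With the floor for a stage at 0 set at 3 counts summed across its libraries (0.0874 CPM for hESC, 0.12 for hDE), hAFE was at least 122-fold higher than hESC and at least 89.0-fold higher than hDE. These bounds rest on 1 library: the first hAFE library alone gives at least 3.03-fold and at least 2.21-fold. The first difference was called by edgeR (adjusted p = 0.0443) and the second was not (0.0635). Without the second hAFE library neither passed (adjusted p = 0.193 and 0.262), and without the first both did (0.00253 and 0.0031). Leaving out the first or second hESC library also ended the call against hESC (0.144 and 0.153), as did log2(TPM + 1) (0.202), and DESeq2 called both differences (0.024 and 0.0379). Against hAFE, hPFE had a log2 fold change of -4.87 that did not pass (SE 1.94, unadjusted p = 0.0473, adjusted p = 0.183); without the first hAFE library it passed (0.0177) and without the second it was 0.49.

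NKX2-6 (ENSG00000180053.7, chromosome 8, 23702451 to 23706598, minus strand) was low but the most even of the 3 between replicates. Its counts were 0 and 2 in hESC, 0 and 0 in hDE, 16 and 11 in hAFE, and 5 and 8 in hPFE. In CPM the hAFE libraries held 1.06 and 0.804 and the hPFE libraries 0.304 and 0.577. Both hAFE libraries lay above both hPFE libraries, but the log2 fold change of hPFE over hAFE, -1.09, did not pass (SE 0.734, edgeR adjusted p = 0.394). Against hDE, hAFE was at least 7.82-fold higher (adjusted p = 0.0147) and hPFE at least 3.58-fold higher (adjusted p = 0.035). Against the 2 counts of hESC, hAFE had a ratio of 16.1 (exact 95% binomial interval 4.04 to 140; edgeR adjusted p = 0.0198), and the ratio for hPFE, 7.36 (1.67 to 67.2), did not pass (adjusted p = 0.0673). The hAFE against hDE call was lost without the first or second hDE library (0.077 and 0.0922). The hPFE against hDE call was lost without any 1 of its 4 libraries (0.0533 to 0.155) and with DESeq2 (0.0739), and hAFE against hESC without either hESC library or the first hAFE library (0.0564 to 0.122) and with DESeq2 (0.0936).

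**Figure D4:**
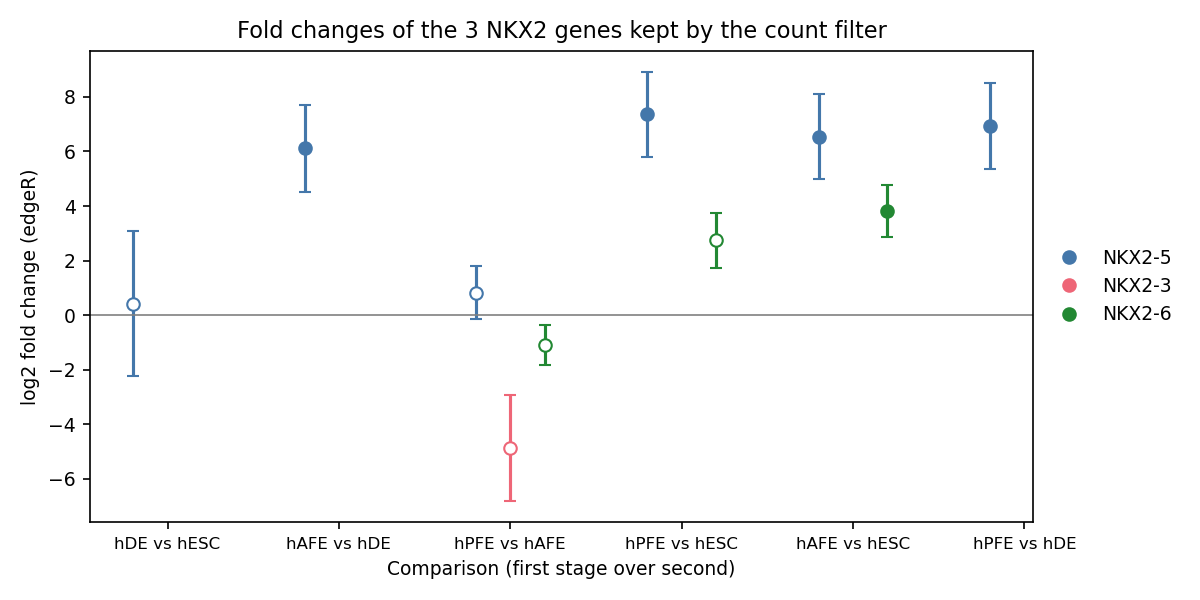
Log2 fold changes (first stage over second) with SE from edgeR for the 3 NKX2 genes kept by the count filter, filled where the adjusted p passed 0.05 and open where it did not. Comparisons in which a gene had 0 counts in 1 stage are left out, since a fitted fold is then no bound. Filled points appear only in comparisons of hAFE or hPFE with hESC or hDE.

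Counted over the family, 2 members were called higher in hAFE than in hDE (NKX2-5 and NKX2-6), where 30.2% of all tested genes were called, 15.0% higher and 15.2% lower. For hAFE against hESC the 3 tested members were all called higher, beside 39.8% of genes called, 19.2% higher and 20.6% lower. For hPFE against hESC only NKX2-5 was called (45.0% of genes, 21.6% higher and 23.3% lower), and for hPFE against hDE NKX2-5 and NKX2-6 (33.6%, 16.6% higher and 17.0% lower). Both libraries of the later stage lay above both of the earlier one for the 3 tested members in each of these 4 comparisons. The same held for 35.1% of genes in hAFE against hDE, 37.0% in hAFE against hESC, 37.0% in hPFE against hESC and 32.4% in hPFE against hDE. These comparisons share stages and the 3 members passed the filter through their high stages, so the counts support nothing further. By edgeR none was called between hPFE and hAFE (7.49% of genes, 4.77% higher and 2.71% lower), and 1, NKX2-3, had an unadjusted p under 0.05. By edgeR none was called between hDE and hESC (41.9% of genes, 20.3% higher and 21.6% lower), and 0 had an unadjusted p under 0.05. Neither comparison had a member with both libraries higher, against 23.1% of genes in hPFE over hAFE and 39.1% in hDE over hESC. DESeq2 also called 0 in both.

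The thyroid and lung factor NKX2-1 (ENSG00000136352.17, chromosome 14, 36516392 to 36521149, minus strand) was not on at any stage by these measures. Its counts were 0 and 0 in hESC, 1 and 1 in hDE, 0 and 2 in hAFE, and 12 and 1 in hPFE. Of the 13 hPFE counts 12 came from the first library, at 0.21 TPM and 0.728 CPM (exact 95% Poisson interval 0.376 to 1.27), against 0.03 TPM and 0.0721 CPM in the second. Both values lie below 1 TPM, the first also when recomputed over nuclear coding genes (0.996), and in CPM the second library does not stand above those of hDE (0.089 and 0.0724). The hPFE total was at least 4.91-fold above the hESC floor, in counting terms only. NKX2-1 did not pass the count filter and so has no test in the fit used throughout. It was called higher in hPFE than in hESC when no filter was used, and when the second hPFE library was left out, so that the lone first library is assumed to vary like the other stages. No call of NKX2-1 was made in that comparison when the first or the second hESC library was left out.

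NKX2-4 (ENSG00000125816.4, chromosome 20, 21395367 to 21398028), the nearest relative of NKX2-1, had 2 counts over hESC, 1 over hDE and 0 over hAFE and hPFE. NKX2-2 (ENSG00000125820.5, chromosome 20, 21511010 to 21514026) had 6 counts in the first hPFE library, 1 in the second hDE library and 0 elsewhere. NKX2-8 (ENSG00000136327.6, chromosome 14, 36580579 to 36582607) had 2 and 2 counts in hAFE, 2 and 0 in hPFE, 0 and 1 in hDE, and 0 in hESC. The highest level of these 3 in any library was 0.11 TPM, for NKX2-2. At this depth a stage total of 0 allows at most 0.104 CPM in hAFE and 0.0989 CPM in hPFE. The first hPFE library, which held 12 of the 17 counts of NKX2-1, also held 6 of the 7 of NKX2-2. Some neural tube markers were higher there than in the second hPFE library: NKX6-1 had 26 counts against 1, NKX6-2 10 against 0, SOX1 20 against 2 and PAX6 39 against 8, each below 1 TPM. The 12 neural tube markers summed to 37.7 TPM in the first hPFE library and 66.5 TPM in the second, mostly TUBB3, a neuronal tubulin, with 3 and 6 of them at 0 counts. The 13 ventral forebrain markers summed to 1.8 and 1.92 TPM (4.98 and 3.97 CPM), of which FGF10 held 0.74 and 1.14 TPM. Some were higher in the first hPFE library: SIX6 had 12 counts against 1, FOXD1 10 against 2 and DLX1 7 against 1. SIX3, with 2 against 12, POMC, with 3 against 5, and SIM1, with 0 against 1, went the other way. Of the 12 pancreas and endocrine markers PDX1 and INS were at 0 in all libraries, while SST, the somatostatin gene, had 45 counts in the first hPFE library and 0 in the second. ISL1 of that list had 1172 counts in the first hPFE library against 476, and CHGA went the other way, with 3 against 7. The part of such cells in the NKX2-1 and NKX2-2 counts was not tested.

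Genes that work with NKX2-1 in thyroid and lung were read from lists. Some genes of these lists and of those below passed the count filter through the stages where they were high. The counts of rises and the medians are thus partly set by the filter. Of 16 thyroid genes 6 were tested, and 3 rose and 1 fell in hPFE against hESC (median log2 fold change 2.07, against 0.016 over all genes; 21.6% of all genes were called higher and 23.3% lower). FOXE1, a forkhead factor of the thyroid bud and the oral and pharyngeal lining, rose from 0.030 ± 0.0425 to 46.6 ± 28.8 CPM (n = 2; edgeR adjusted p = 0.000707). GLIS3, a zinc finger factor of thyroid and pancreas, rose from 0.436 ± 0.0225 to 10.2 ± 6.32 CPM (adjusted p = 0.000932). SLC26A4, the anion exchanger pendrin, was at 12.3 ± 16.3 CPM in hPFE, and its call (adjusted p = 0.0161) was lost without the second hPFE library (0.141), without either hESC library (0.104 and 0.089) and on log2(TPM + 1) (0.169). SLC5A5, the iodide transporter, fell from 0.936 ± 0.205 to 0.0304 ± 0.0429 CPM (adjusted p = 0.0199), and 5 of 11 alternatives did not call it. HHEX and TSHR, the other tested genes of the list, did not pass (edgeR adjusted p = 0.771 and 0.814). HHEX held 32.4 ± 3.99 CPM in hDE, against 0.502 ± 0.31 CPM in hESC and 0.3625 ± 0.00246 CPM in hPFE. PAX8, the partner of NKX2-1 in thyroid, held 0.15 and 0 TPM in hPFE, and the hormone precursor gene TG 0.03 and 0.20 TPM.

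Of 21 lung genes 11 were tested, and 5 rose and 1 fell in hPFE against hESC (median log2 fold change 1.48). Over all genes 21.6% were called higher and 23.3% lower. FOXP2 and ID2, regulators of the lung epithelial tip that other tissues also use, rose to 34.3 ± 29.6 CPM (adjusted p = 0.000805) and 136.4 ± 41.5 CPM (adjusted p = 0.00143). LAMP3, a lysosomal membrane gene of alveolar and dendritic cells, rose to 3.12 ± 3.13 CPM (adjusted p = 0.00775), but not when either hESC library was left out (0.0591 and 0.0553) and on log2(TPM + 1) (0.123). The gene that fell was SCGB3A2, an airway secretoglobin, from 1.96 ± 0.207 to 0.0304 ± 0.0429 CPM (adjusted p = 0.00244). The surfactant protein genes SFTPA1, SFTPA2, SFTPB and SFTPC, products of alveolar cells, were at 0 counts in all 4 foregut libraries. The count of 5 became 3 without either hESC library and on log2(TPM + 1).

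Of 24 pharyngeal pouch genes 18 were tested, and 13 rose and 1 fell in hPFE against hESC (median log2 fold change 2.66, also 2.66 with genes at 0 counts in a stage set to their bound). Over all genes 21.6% were called higher and 23.3% lower. PAX1, HOXA3 and TBX1 had 0 counts in hESC, so they could be called higher or not at all. Leaving out 1 of the 4 libraries gave 6 to 9 rises, and log2(TPM + 1) gave 7. PAX9 rose from 0.115 ± 0.0774 to 62.1 ± 47.4 CPM (edgeR adjusted p = 0.000449) and PAX1, its relative, from 0 counts to 21.9 ± 6.47 CPM (adjusted p = 0.00142). ISL1, a homeobox gene of pharyngeal endoderm and heart field, rose from 0.235 ± 0.0924 to 52.8 ± 26.0 CPM (adjusted p = 0.00184). HOXA3, a patterning gene of the pharyngeal arches, went from 0 counts to 3.49 ± 0.553 CPM (adjusted p = 0.0366), and 6 of 12 alternatives did not call it. GCM2 and FOXN1, the factors of the parathyroid and thymus that come from the pouches, held at most 0.04 TPM in any foregut library.

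Hedgehog signalling shapes NKX2 gene domains in the ventral foregut. Of 16 hedgehog genes 13 were tested, and 8 rose and 1 fell in hPFE against hESC (median log2 fold change 1.41), with 4 or 5 rises without either hESC library or without the first hPFE library. SHH, the ligand, held 3 counts over hESC and 119.8 ± 66.6 CPM in hPFE (adjusted p = 9.2e-05), and it rose from hAFE to hPFE as well (log2 fold change 3.42, SE 0.43, adjusted p = 0.0062), a call lost when only those 4 libraries were fitted (0.0767). PTCH1, its receptor and target, rose from 15.0 ± 5.78 CPM in hESC to 118.4 ± 5.48 CPM in hPFE (adjusted p = 0.000361). The target and inhibitor HHIP held 2 counts over hESC and 15.2 ± 14.3 CPM in hPFE (adjusted p = 0.00375). GLI1, at 13.3 ± 0.624 CPM in hESC and 21.7 ± 5.94 CPM in hPFE, did not pass (edgeR adjusted p = 0.111), nor did SMO (0.216). Over all genes 21.6% were called higher and 23.3% lower in hPFE against hESC.

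The NKX2 genes near 0 lie on stretches of chromosome that also hold genes that were on, though both genes next to NKX2-1 were near 0 as well. On chromosome 14 the order is SFTA3, NKX2-1, NKX2-8, PAX9. SFTA3, a lung surfactant-associated gene 2.56 kb from NKX2-1, held at most 0.13 TPM, and NKX2-1 and NKX2-8 at most 0.21 and 0.08 TPM. PAX9, 75.0 kb beyond NKX2-8, held 4.00 and 3.09 TPM in hAFE and 14.7 and 5.88 TPM in hPFE. On chromosome 20 the order is XRN2, NKX2-4, NKX2-2, PAX1. XRN2, an RNA exonuclease gene 5.54 kb from NKX2-4, held 17.3 to 56.1 TPM in the 8 libraries, and PAX1, 192 kb beyond NKX2-2, held 4.00 and 3.44 TPM in hPFE and at most 0.07 in the other libraries. PAX1 rose from hAFE to hPFE (log2 fold change 6.07, edgeR adjusted p = 0.0161), a call lost with DESeq2 (0.153) and when only the 4 libraries were fitted (0.0895). The antisense genes NKX2-1-AS1 and NKX2-2-AS1 held at most 1 count in a library. None of the 4 nearest coding genes of NKX2-5 was called between hPFE and hAFE, where 7.49% of all tested genes were called. From hDE to hAFE BOD1 rose and STC2 fell (log2 fold changes 0.64 and -1.50, edgeR adjusted p = 0.00848 and 0.0227), and CREBRF and BNIP1 did not pass. Over all genes 15.0% were called higher and 15.2% lower in that comparison, so these calls are no result about the locus.

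**Figure D5:**
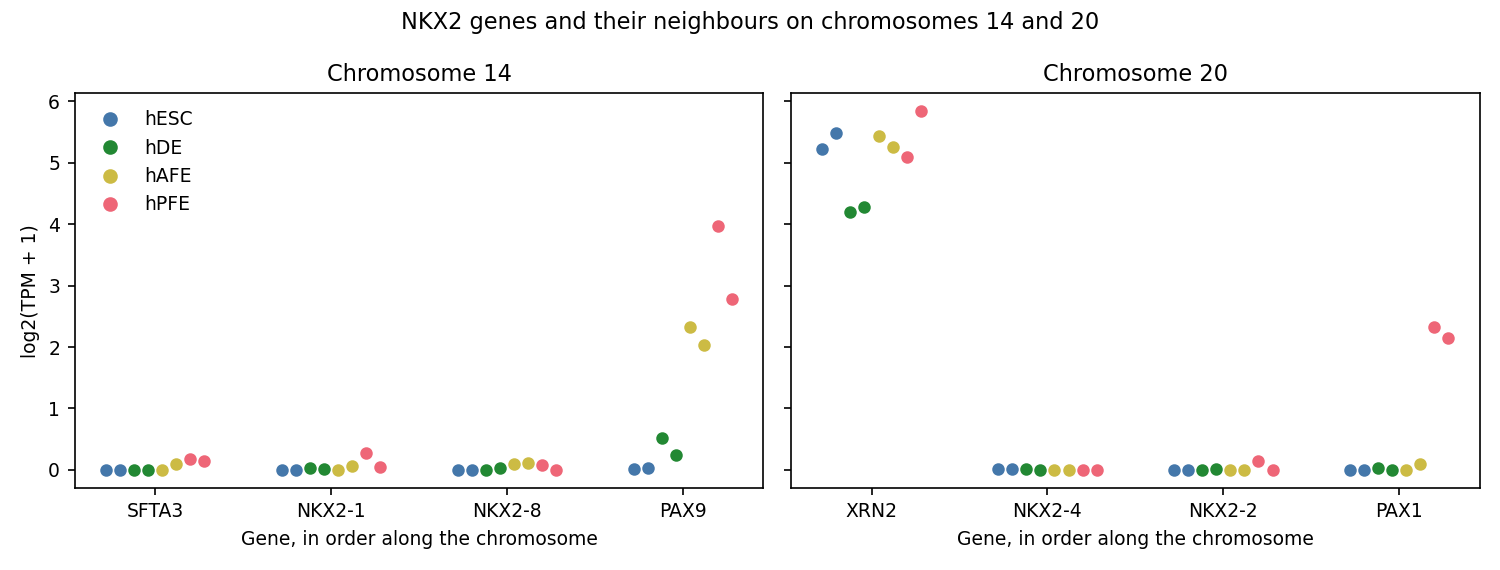
Log2(TPM + 1) of NKX2-1 and NKX2-8 (left) and NKX2-4 and NKX2-2 (right) with their neighbours in chromosome order, 1 point per library, coloured by stage. The NKX2 genes lie at or near 0 in every library, while PAX9 reaches 14.7 TPM and PAX1 reaches 4.00 TPM in hPFE.

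The genes most like each tested member were found by Pearson's r of log2 CPM over the 8 libraries, as a description. The points share stages and libraries, so a high r mostly repeats the rise in foregut. For NKX2-5 the 5 nearest were C11orf49 (r = 0.984), ALDH3B2 (0.977), ISL1 (0.973), KAT2B (0.972) and TSPAN3 (0.971). ISL1 held 5.22 and 39.8 CPM in hAFE and 71.1 and 34.3 CPM in hPFE, and so had its lower and higher library in each stage where NKX2-5 had them. For NKX2-3 they were DYRK2 (0.961), FGF5 (0.956), ABCA4 (0.953), CYP26C1 (0.951) and ZNF223 (0.95), each highest in the second hAFE library. CYP26C1, a retinoic acid degrading enzyme, held 157 CPM there and 0.925 CPM in the first hAFE library. FGF5, a growth factor gene, held 7.53 and 0.132 CPM in the same 2 libraries. For NKX2-6 they were TMEM237 (0.983), KAT6B (0.982), TNRC6B (0.981), STK17A (0.981) and HUNK (0.98).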

How the data were processed

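RNA-seq of 8 libraries, 2 at each of 4 stages, was read from gene-level RSEM tables. Per the submitters' processing notes, RSEM was used on hg38 and DESeq2 is also named; the aligner, the versions and the strand setting are not given in the sources used here, and per the labels' protocols RNA was depleted of ribosomal RNA and libraries kept strand. Expected counts, as deposited, are RSEM's estimated counts and share out reads that fit more than 1 gene. The deposited TPM values are shares per transcript length, and the deposited effective lengths and posterior standard deviations were read beside them. All 58780 gene identifiers matched GENCODE 29; the other 746 lines of each table (97 spike-ins, 649 tRNA genes) held 0 counts.

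Counts were rounded, filtered with filterByExpr and fitted over all 8 libraries with edgeR 4.0.16 (TMM, quasi-likelihood, 4 stage terms, Benjamini-Hochberg over all 17446 genes, threshold 0.05) in R 4.3.3. The SE is the log2 fold change divided by the square root of F. Against a stage at 0 counts a fold is a lower bound, set by a floor of 3 counts over its 2 libraries; against 1 to 3 counts the ratio is given with its counting interval. Alternatives used RLE scaling, DESeq2 1.42.0, 2 other filters, a fit of only the 4 libraries compared, effective length offsets, a replicate block, log2(TPM + 1) in limma 3.58.1, and each library left out. The fit was first tested on simulated data. Members and lists were chosen with earlier results of these data known. Genes named from a list were taken from its 4 largest called changes per comparison and the 2 best expressed that did not pass. Neighbours are the 2 nearest coding genes on each side, and like genes the 5 of highest r. List genes below the filter were named after their values were seen, as were the single markers of cell types. Some genes and sequences are not reported here. Intervals cover counting error alone, as no molecular identifiers tell copied reads apart.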

Additional observations from a re-analysis of the deposited data

How the results depend on the processing

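Scaling by RLE changed none of the 6 counts of called members, and the count between hDE and hESC was 0 under all 12 alternatives, in 1 of which (only the 4 libraries compared) no member entered the fit. From hDE to hAFE the 2 calls became 1 with a filter of 1 CPM in 2 libraries (which removed NKX2-3 and NKX2-6), 1 with effective length offsets and 1 on log2(TPM + 1), and 0 to 3 when a library was left out. For hAFE against hESC the 3 calls became 1 with the 1 CPM filter and 1 on log2(TPM + 1), and 0 to 2 when a library was left out. For hPFE against hDE the 2 calls became 1 with DESeq2, 1 with the 1 CPM filter and 1 with only the 4 libraries compared, and 0 to 1 when a library was left out. For hPFE against hESC the 1 call became 4 with no count filter, and 0 to 2 when a library was left out; for hPFE against hAFE the 0 calls became 1 with no count filter, and 0 to 1 when a library was left out. Without a filter 32980 genes entered and the prior degrees of freedom of the spread, 3.79 in the fit reported, became infinite, so that each gene took the common trend, with an adjusted p of 4.49e-29 for NKX2-3 in hAFE against hESC. Against the threshold of 1 TPM in both libraries, hAFE went from 0 members to 2 at 0.5 TPM, to 2 over nuclear coding genes and to 0 to 2 when a library was left out, and hPFE from 1 to 0 at 2 TPM, to 2 over nuclear coding genes and to 1 when a library was left out. Direction changed in uncalled results: NKX2-5 in hDE against hESC had log2 fold changes of -0.45 without the first hESC library and -3.03 without the first hDE library (up to 3.37 without the second hESC library), NKX2-5 in hPFE against hAFE was -1.02 without the first hPFE library (up to 2.44 without the second hAFE library), and NKX2-3 in hPFE against hAFE was 0.49 without the second hAFE library (down to -7.35 without the second hPFE library). The cause of these shifts was not tested.

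Whether libraries with the same replicate number belong together across stages is not stated. The correlation of replicate differences between stages ran from -0.041 to 0.061 over 9852 genes. A value near 0 cannot decide this, since paired libraries that differ little could give it too. With the replicate block, NKX2-3 was called in hPFE against hAFE (1 call in place of 0, adjusted p = 0.0377) and against hESC (2 in place of 1, adjusted p = 0.0291), was called in hAFE against hDE (3 in place of 2), and replaced NKX2-6 in hPFE against hDE. With 2 libraries per stage and totals of 0 to 2 counts in hESC and hDE, single libraries decide most calls.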

Other observations

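Of 7 other NKX genes outside the NKX2 group, 3 were tested, and in hPFE against hESC 1 rose and 1 fell. Over all genes 21.6% were called higher and 23.3% lower. NKX1-2, a homeobox gene of caudal and axial progenitors, fell from 32.2 ± 7.97 CPM in hESC to 0.313 ± 0.271 CPM in hPFE (n = 2; edgeR adjusted p = 0.000187). NKX3-2, a regulator of axial skeleton and gut mesoderm, held 1 count over hESC and 2.04 ± 1.76 CPM in hPFE (adjusted p = 0.00502). These calls of NKX1-2 and NKX3-2 held under all 12 and 11 alternatives that gave a value.

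Within the pharyngeal pouch list, the T-box gene TBX1, which shares pharyngeal territory with the NKX2 genes, had 0 counts in hDE and 3.36 ± 3.73 CPM in hAFE (edgeR adjusted p = 0.0239). The TBX1 call was lost without either hDE library (0.0902 and 0.102), when only the 4 libraries were fitted (0.0564) and on log2(TPM + 1) (0.0858).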
